A study of Mus musculus with 4 samples.

Results

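The Cfap genes (cilia and flagella associated protein) share a name given for the organelle in which their products were found. They were taken here as every gene of the deposited table whose symbol is Cfap, a number and at most 1 letter. There were 31 of them among 55335 genes, and all 31 passed the filter on low counts that left 24116 genes for testing. Cfap97d1 and Cfap97d2 fall outside this spelling and were not counted. The symbols alone pick the genes, but the family as a whole was selected on the log2 changes between these same Znhit1_KO and CTRL libraries, in which many of its members were already known to be lower. Every difference of a Cfap gene between the groups is therefore given as a description, and nothing is read from its size against the background.

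Poly(A) RNA came from fresh mouse testes at P14 (day 14 after birth), with 2 Znhit1_KO and 2 CTRL libraries that the labels call independent biological replicates; the design text speaks of germ cells. The labels used here do not give the strain, how or in which cells Znhit1 was disrupted, the genotype of the CTRL animals, or whether animals were pooled. ZNHIT1 works within the SRCAP chromatin remodeller, which loads the H2A.Z variant of histone H2A into nucleosomes. The Znhit1 transcript stood at 3.15 and 2.14 CPM (normalised estimated counts scaled to library size) in the Znhit1_KO libraries and at 17.3 and 31.9 CPM in the CTRL libraries, with no overlap. The estimated counts summed to 157790457 and 136732861 in Znhit1_KO replicates 1 and 2 and to 129531714 and 136178177 in CTRL replicates 1 and 2. Markers of meiotic spermatocytes were present in every library, and of 7 round spermatid markers 3 passed the filter, with summed levels of 3.80 to 3.84 CPM in Znhit1_KO and 4.10 to 4.91 CPM in CTRL.

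The sperm tail is built around an axoneme, in which a ring of doublet microtubules surrounds a central pair. Dynein arms on the doublets make them slide, radial spokes carry signals between the centre and the ring, and small proteins inside the doublets stiffen them. In the testis, many axoneme genes are first transcribed in meiotic spermatocytes, before any tail has formed. The CFAP proteins are scattered through this machine and were named for it, not for a shared ancestor. Mutations of several of them, such as CFAP43, CFAP44, CFAP65 and CFAP69, cause male infertility with short, coiled or absent sperm tails, and others are linked to disease of motile cilia in the airway.

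Most Cfap transcripts were lower in Znhit1_KO testes, and 1 was higher. The lower ones ran from over 10-fold, in Cfap58 alone and on few counts, to almost nothing. Cfap52 came next after Cfap58, at 7.63-fold. A negative log2 change was fitted for 30 of the 31, beside 46.9% of all tested genes. Of the 31 genes, 26 had both Znhit1_KO libraries below both CTRL libraries, an order that 21.3% of all tested genes showed. The 4 genes with overlapping groups were Cfap20, Cfap77, Cfap100 and Cfap298, and Cfap47 alone had both Znhit1_KO libraries above both CTRL libraries, as 21.8% of all tested genes did. The median log2 change (Znhit1_KO over CTRL) of the 31 was -1.44, with a range of -3.73 to 1.10, beside a median of 0.031 over all genes tested. There were 20 Cfap genes with a log2 change below -1, a size that 8.88% of tested genes reached, and 1 had a log2 change above 1, beside 4.79% of tested genes. In 24 of them the negative change was larger than the gap between replicates in either group, and 16.3% of all tested genes had such a negative change. The same held for the positive change of 1 Cfap gene, beside 15.6% of tested genes. In these bulk samples, fewer cells of a type and less RNA per cell cannot be told apart.

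**Figure D1:**
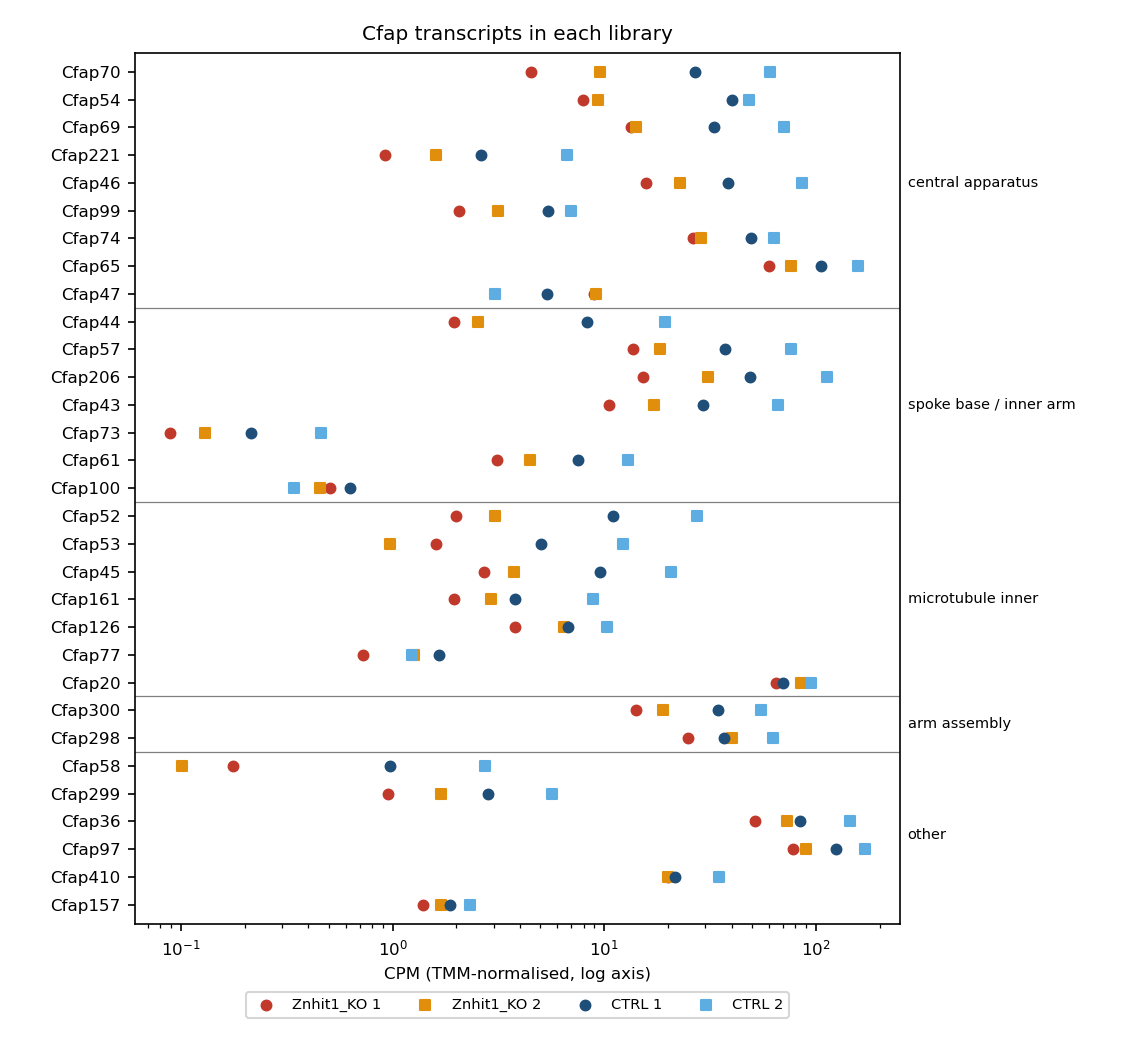
Level of each of the 31 Cfap genes in each library, in TMM-normalised CPM on a log axis; circles are replicates 1 and squares replicates 2, and genes are ordered by log2 change within role groups. In 26 genes both Znhit1_KO points lie left of both CTRL points, and in Cfap47 they lie right of them.

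The edgeR quasi-likelihood test called 0 of the 31 genes at an adjusted p of 0.05, where the background is also 0% of 24116 genes. At an unadjusted p under 0.05 it held 22 Cfap genes as lower and 1 as higher, against 7.75% and 2.99% of tested genes. DESeq2 called 20 Cfap genes among 1041 genes called in all, and edgeR without CTRL replicate 1 called 17 among 754. With limma-voom 0 Cfap genes and 0 genes in all were called. The authors' deposited table marks 18 of the 31 as lower and 0 as higher, beside 3.22% and 0.277% of its 25236 genes. Its marks needed a fold of at least 2 as well as an adjusted p under 0.05, so that Cfap65 (adjusted p of 0.0317 in the authors' deposited table) and Cfap97 (0.0489 there) stayed unmarked.

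Among the central apparatus genes, Cfap54 had the smallest spread between replicates for its size of difference. CFAP54 is a large scaffold of a projection of the central pair, and its loss in mice gives hydrocephalus and sperm without proper tails. The gene (chromosome 10, 92775619 to 93081618, mm10) stood at 7.98 and 9.33 CPM in Znhit1_KO and at 40.0 and 48.6 CPM in CTRL. The log2 change was -2.36 (SE 0.207), and it stayed between -2.51 and -2.21 whichever library was left out. Cfap70 (chromosome 14, 20394193 to 20452226), which encodes a central apparatus protein with tetratricopeptide repeats, stood at 4.52 and 9.58 CPM in Znhit1_KO and at 26.9 and 61.0 CPM in CTRL. Its log2 change of -2.64 (SE 0.543) was the lowest of the central apparatus group, but replicates differed by over 2-fold in both groups.

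Cfap69, needed for sperm tail assembly and also present in olfactory cilia, stood at 13.4 and 14.2 CPM in Znhit1_KO and at 32.9 and 70.4 CPM in CTRL, a log2 change of -1.90 (SE 0.381). Cfap46 stood at 15.8 and 22.9 CPM in Znhit1_KO and at 38.5 and 85.8 CPM in CTRL. Cfap46, Cfap74 and Cfap221 encode neighbours of CFAP54 in the same projection of the central pair. Cfap221, known as Pcdp1 from a mouse model of ciliary dyskinesia, stood at 0.918 and 1.61 CPM in Znhit1_KO and at 2.61 and 6.70 CPM in CTRL. Cfap74 stood at 26.3 and 28.8 CPM in Znhit1_KO and at 49.7 and 63.7 CPM in CTRL, with a log2 change of -1.04 (SE 0.192). The fitted log2 changes of Cfap221 (-1.88, SE 0.569) and Cfap46 (-1.68, SE 0.425) were larger in size than that of Cfap74. Without CTRL replicate 2 they were close, at -1.05 for Cfap221, -0.99 for Cfap46 and -0.85 for Cfap74, while Cfap54 stayed at -2.21. Differences between these genes were not tested.

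Cfap65, whose loss leaves mouse sperm with malformed tails, stood at 59.8 and 76.4 CPM in Znhit1_KO and at 106.2 and 158.7 CPM in CTRL. Its log2 change was -0.96 (SE 0.25). Cfap99 had 2.06 and 3.16 CPM in Znhit1_KO and 5.43 and 6.94 CPM in CTRL. Its log2 change was -1.24 (SE 0.336), and in both genes the groups did not overlap. Across all 9 central apparatus genes the median log2 change was -1.68, and the authors' deposited table marks 7 of them as lower, beside 3.22% of all its genes.

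Cfap47 was the exception of the central apparatus group and of the family. It is X-linked (chromosome X, 79266559 to 79517285), the only gene of the 31 on that chromosome. Cfap47 stood at 8.95 and 9.12 CPM in Znhit1_KO and at 5.39 and 3.05 CPM in CTRL. The log2 change was 1.10 (SE 0.34) and stayed between 0.75 and 1.57 with any library left out. CTRL replicate 2 lay below CTRL replicate 1 in Cfap47, Cfap77 and Cfap100, and in no other Cfap gene. The authors' deposited table leaves it unmarked (adjusted p of 0.0575).

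**Figure D2:**
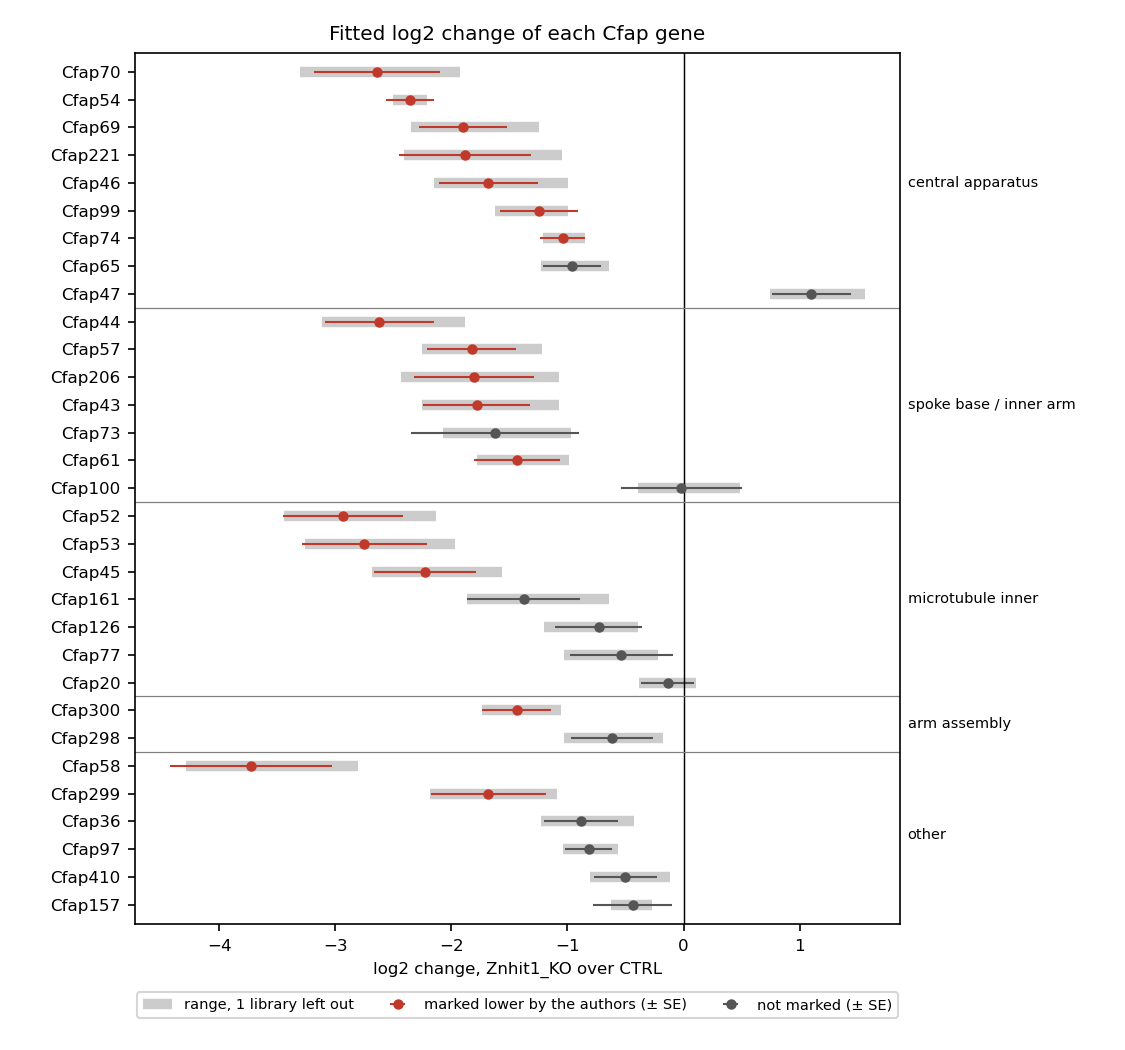
Fitted log2 change (Znhit1_KO over CTRL) of each Cfap gene with its standard error; grey bars span the values with each of the 4 libraries left out, and red points are the 18 genes that the authors' deposited table marks as lower. Apart from Cfap47 all points lie at or left of 0, and the grey bars of Cfap20 and Cfap100 cross it.

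Genes acting at the base of the radial spokes and on the inner dynein arms had a median log2 change of -1.78 over 7 genes. CFAP43 and CFAP44 form the tether that holds the motor heads of an inner dynein to the doublet. Cfap44 stood at 1.96 and 2.54 CPM in Znhit1_KO and at 8.34 and 19.4 CPM in CTRL. Its partner Cfap43 stood at 10.5 and 17.3 CPM in Znhit1_KO and at 29.4 and 66.3 CPM in CTRL. Both were lower without overlap, with log2 changes of -2.62 (SE 0.47) for Cfap44 and -1.78 (SE 0.459) for Cfap43.

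Cfap206 encodes a docking protein for a radial spoke. It stood at 15.2 and 31.0 CPM in Znhit1_KO and at 48.8 and 113.0 CPM in CTRL. Cfap61, part of a calmodulin-binding complex at the spoke base, stood at 3.12 and 4.47 CPM in Znhit1_KO and at 7.55 and 13.0 CPM in CTRL. Cfap57, a repeat protein needed for a subset of inner dyneins, stood at 13.7 and 18.3 CPM in Znhit1_KO and at 37.3 and 76.3 CPM in CTRL. The 3 genes had log2 changes of -1.81 (SE 0.516) for Cfap206, -1.44 (SE 0.37) for Cfap61 and -1.83 (SE 0.383) for Cfap57.

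In the green alga Chlamydomonas, CFAP73 and CFAP100 form a complex that modifies the inner arms. Both had few counts in these testes. Cfap73 had 14 and 18 estimated counts in Znhit1_KO and 29 and 59 in CTRL, or 0.0886 and 0.130 CPM against 0.215 and 0.460 CPM. Cfap100 had 0.506 and 0.454 CPM in Znhit1_KO and 0.629 and 0.343 CPM in CTRL. The log2 changes of -1.62 (SE 0.723) for Cfap73 and -0.018 (SE 0.52) for Cfap100 rest on few counts, and the groups of Cfap100 overlapped. Cfap73 shares 78 exonic bases with Ddx54 on the opposite strand, which had 20443 and 16677 estimated counts in Znhit1_KO and 14393 and 14563 in CTRL. Whether the counting used strand is not stated in the labels, and without strand the reads of Cfap73 and Ddx54 in these bases cannot be told apart.

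Of 7 genes for proteins inside the doublet microtubules, 5 were lower in both Znhit1_KO libraries and 2 overlapped, beside 21.3% of all tested genes lower in both, and the median log2 change was -1.38. Cfap52 (chromosome 11, 67924806 to 67965651) and Cfap45 encode neighbouring proteins of the doublet lumen whose loss disturbs left-right asymmetry and sperm motility. Cfap52 stood at 1.99 and 3.05 CPM in Znhit1_KO and at 11.1 and 27.4 CPM in CTRL, a log2 change of -2.93 (SE 0.517). Cfap45 stood at 2.72 and 3.76 CPM in Znhit1_KO and at 9.58 and 20.7 CPM in CTRL, a log2 change of -2.23 (SE 0.441). Cfap53, also needed for left-right asymmetry, stood at 1.60 and 0.972 CPM in Znhit1_KO and at 5.04 and 12.3 CPM in CTRL, a log2 change of -2.75 (SE 0.541). It was 1 of the 3 genes in which Znhit1_KO replicate 2 lay below replicate 1, with Cfap58 and Cfap100.

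Cfap161 was lower without overlap, at 1.95 and 2.91 CPM in Znhit1_KO and 3.79 and 8.82 CPM in CTRL. Its log2 change of -1.38 (SE 0.487) was -0.64 without CTRL replicate 2. Cfap126, or Flattop, acts in basal body positioning in ciliated cells and stood at 3.77 and 6.48 CPM in Znhit1_KO and at 6.73 and 10.3 CPM in CTRL. Znhit1_KO replicate 2 and CTRL replicate 1 of Cfap126 lay closer together than the replicates of either group. Cfap77 overlapped, with 0.728 and 1.27 CPM in Znhit1_KO and 1.66 and 1.23 CPM in CTRL. The log2 changes were -0.73 (SE 0.378) for Cfap126 and -0.53 (SE 0.441) for Cfap77.

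Cfap20 was the abundant member with the log2 change closest to 0. CFAP20 is conserved from algae to mammals and lies at the seam of the doublet, and its transcript is found in many tissues without motile cilia. It stood at 64.5 and 85.1 CPM in Znhit1_KO and at 69.7 and 94.9 CPM in CTRL. The groups were interleaved, and the log2 change was -0.14 (SE 0.229), from -0.38 to 0.10 with a library left out.

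Both genes for assembly of dynein arms in the cytoplasm had negative log2 changes, and the groups overlapped for Cfap298. Cfap300 stood at 14.1 and 19.0 CPM in Znhit1_KO and at 34.4 and 55.0 CPM in CTRL, with a log2 change of -1.44 (SE 0.297). Cfap298 stood at 24.8 and 40.1 CPM in Znhit1_KO and at 36.7 and 62.6 CPM in CTRL, and Znhit1_KO replicate 2 lay above CTRL replicate 1. The log2 change of Cfap298 was -0.62 (SE 0.351), from -1.03 to -0.18 with a library left out. Cfap298 shares 703 exonic bases, 44.2% of its exons, with Gm49727 on the opposite strand, which had 105 to 156 estimated counts in any library. Mutations of CFAP298 or CFAP300 cause primary ciliary dyskinesia.

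Of the remaining 6 genes, Cfap58 had the lowest log2 change of the family. CFAP58 is needed for the sperm axoneme and mitochondrial sheath. Cfap58 (chromosome 19, 47937675 to 48035387) had 28 and 14 estimated counts in Znhit1_KO and 132 and 352 in CTRL, or 0.177 and 0.101 CPM against 0.978 and 2.74 CPM. The log2 change was -3.73 (SE 0.699), from -4.29 to -2.80 with a library left out. Cfap299 stood at 0.950 and 1.69 CPM in Znhit1_KO and at 2.81 and 5.65 CPM in CTRL, a log2 change of -1.68 (SE 0.498) without overlap.

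Cfap36, which binds a small GTPase of cilia, and Cfap97 were abundant and moderately lower. Cfap36 stood at 51.4 and 73.3 CPM in Znhit1_KO and at 84.0 and 145.8 CPM in CTRL, a log2 change of -0.88 (SE 0.321) that was -0.43 without CTRL replicate 2. Cfap97 stood at 78.0 and 89.5 CPM in Znhit1_KO and at 124.1 and 171.2 CPM in CTRL, a log2 change of -0.82 (SE 0.206). Cfap410, linked to retinal and skeletal ciliopathies, stood at 19.9 and 20.001 CPM in Znhit1_KO and at 21.7 and 34.8 CPM in CTRL. Cfap157, which acts at the basal body, stood at 1.39 and 1.70 CPM in Znhit1_KO and at 1.86 and 2.32 CPM in CTRL. In Cfap410 and Cfap157 the groups did not overlap, but CTRL replicate 1 lay close to the Znhit1_KO values; the log2 changes were -0.50 (SE 0.268) for Cfap410 and -0.44 (SE 0.338) for Cfap157.

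Most Cfap genes also shared an order between the replicates of each group. CTRL replicate 2 lay above CTRL replicate 1 in 28 of the 31, beside 53.1% of all tested genes, with a median gap of 0.80 on the log2 scale. Znhit1_KO replicate 2 lay above Znhit1_KO replicate 1 in 28 of the 31, beside 49.4% of all tested genes, with a median gap of 0.47. Over all tested genes the median gaps were 0.041 in CTRL and -0.0074 in Znhit1_KO. The summed level of the 31 genes was 452.9 and 598.1 CPM in Znhit1_KO replicates 1 and 2 and 853.9 and 1449 CPM in CTRL replicates 1 and 2. The libraries thus fall in the order Znhit1_KO replicate 1, Znhit1_KO replicate 2, CTRL replicate 1 and CTRL replicate 2, and the CTRL libraries stand farther apart from each other than the nearest libraries of different groups. Without CTRL replicate 2 the median log2 change was -0.99, and without CTRL replicate 1 it was -1.86. In 14 genes the negative log2 change was over 1.5 times smaller in size without CTRL replicate 2. It then came to -1.08 for Cfap206 and Cfap43, -1.22 for Cfap57, -1.25 for Cfap69, -1.09 for Cfap299, -0.99 for Cfap46 and -0.97 for Cfap73. The others were Cfap221 at -1.05, Cfap126 at -0.39, Cfap157 at -0.27, Cfap298 at -0.18, Cfap410 at -0.12, and Cfap36 and Cfap161 with the values given above.

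**Figure D3:**
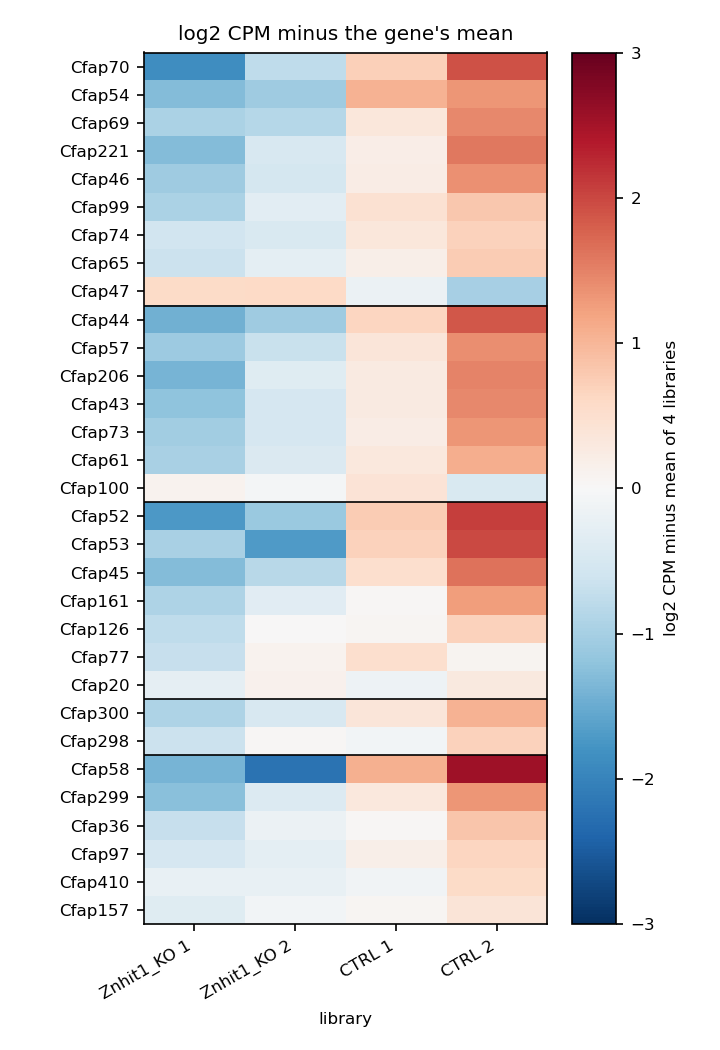
log2 CPM of each Cfap gene minus its own mean over the 4 libraries, with red above and blue below the mean; columns are libraries and rows are genes in the order of the role groups. The Znhit1_KO replicate 1 column is the bluest and the CTRL replicate 2 column the reddest, with Cfap47 reversed and Cfap20 near white.

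Levels can be compared between genes on the authors' TPM values, which are scaled to transcript length. The median of the 31 genes in CTRL was 18.8 TPM, against 4.97 TPM over all genes of the authors' deposited table, and 21 of the 31 exceeded 10 TPM. Cfap36 (95.8 TPM in Znhit1_KO and 168.4 TPM in CTRL, group means) and Cfap20 (122.6 TPM in Znhit1_KO and 132.8 TPM in CTRL) were the highest. Cfap206 (27.9 TPM in Znhit1_KO and 91.8 TPM in CTRL), Cfap298 (62.1 TPM in Znhit1_KO and 89.5 TPM in CTRL) and Cfap97 (52.9 TPM in Znhit1_KO and 86.5 TPM in CTRL) followed. In Znhit1_KO the order of group means at the top was Cfap20, Cfap36, Cfap298, Cfap97 and Cfap65. Among the Znhit1_KO libraries, Cfap20 and Cfap36 overlapped in TPM, as did Cfap298 and Cfap97. In CTRL the libraries of Cfap36 and Cfap20 overlapped in TPM, as did those of Cfap206, Cfap298 and Cfap97. The lowest in CTRL was Cfap100, at 0.421 TPM in Znhit1_KO and 0.450 TPM in CTRL.

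**Figure D4:**
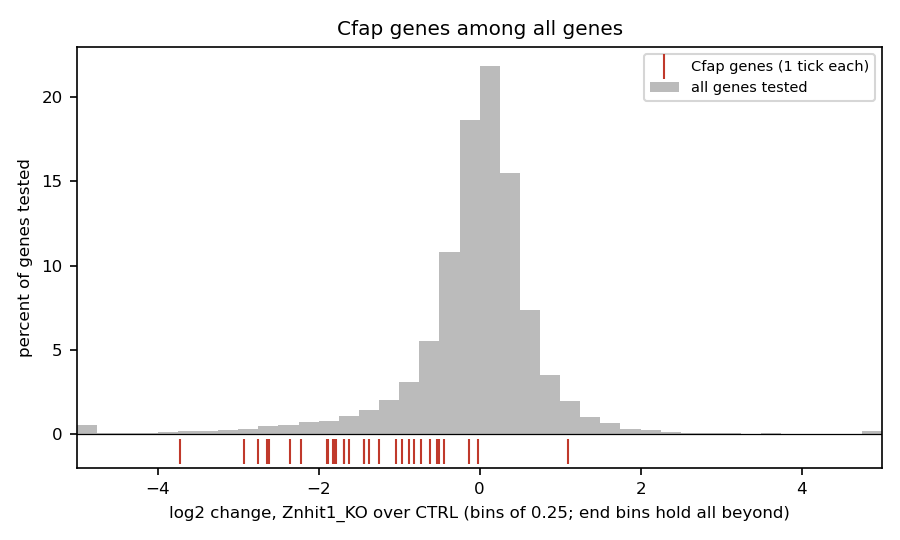
Distribution of log2 change (Znhit1_KO over CTRL) over the 24116 genes tested, as percent of genes per bin of 0.25 in grey, with a red tick for each Cfap gene below the axis. The ticks reach from -3.73 (Cfap58) to 1.10 (Cfap47), while the grey bins peak near 0.

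All 31 genes are protein-coding in GENCODE M21 and lie on 15 chromosomes, with at most 4 on any of them. Within 1000 bases upstream of their start, 3 had the start of a gene transcribed the other way. Opposite-strand genes that start inside a Cfap gene were not counted. The gene 4930534H18Rik, annotated as a noncoding RNA of a bidirectional promoter, shares 148 exonic bases with Cfap298 on the opposite strand. Ebna1bp2, which starts 22 bases from Cfap57, stood at 58.0 and 59.3 CPM in Znhit1_KO and at 62.2 and 76.5 CPM in CTRL. Stx8, 542 bases from Cfap52, stood at 10.3 and 11.4 CPM in Znhit1_KO and at 11.6 and 17.9 CPM in CTRL. Zfyve28, 151 bases from Cfap99, stood at 11.3 and 10.5 CPM in Znhit1_KO and at 10.8 and 9.49 CPM in CTRL. Ebna1bp2 and Stx8 were lower in both Znhit1_KO libraries, an order that 21.3% of all tested genes showed, and the groups of Zfyve28 overlapped. The nearest libraries of the groups lay close, at 59.3 against 62.2 CPM for Ebna1bp2 and 11.4 against 11.6 CPM for Stx8. A link between these genes and their Cfap neighbours was not tested.

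Promoter sequence is shown for 5 genes that span the range of change: Cfap58, with the lowest log2 change, Cfap44 and Cfap161, which hold the motifs more than once, Cfap20, with interleaved groups, and Cfap47, the 1 gene that was higher. Each is the 250 bases before the RefSeq start (GRCm38.p6), 5′ to 3′ on the gene's strand. Capitals mark GTTGCC or its reverse complement GGCAAC, part of the X-box bound by RFX factors, which switch on cilia genes. They also mark CAGTTG or its reverse complement CAACTG, a core bound by MYB factors.
Cfap58 (chr19:47937462-47937711, plus strand): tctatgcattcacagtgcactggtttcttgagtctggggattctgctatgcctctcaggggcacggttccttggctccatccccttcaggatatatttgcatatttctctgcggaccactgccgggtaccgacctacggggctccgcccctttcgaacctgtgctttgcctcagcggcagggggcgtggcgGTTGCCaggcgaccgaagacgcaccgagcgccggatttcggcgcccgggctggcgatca
Cfap44 (chr16:44394549-44394798, plus strand): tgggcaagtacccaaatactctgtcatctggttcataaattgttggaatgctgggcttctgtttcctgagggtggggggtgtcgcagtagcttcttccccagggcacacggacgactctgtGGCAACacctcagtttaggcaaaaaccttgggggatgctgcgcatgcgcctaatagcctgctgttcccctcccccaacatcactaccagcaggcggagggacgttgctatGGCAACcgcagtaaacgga
Cfap161 (chr7:83794840-83795089, minus strand): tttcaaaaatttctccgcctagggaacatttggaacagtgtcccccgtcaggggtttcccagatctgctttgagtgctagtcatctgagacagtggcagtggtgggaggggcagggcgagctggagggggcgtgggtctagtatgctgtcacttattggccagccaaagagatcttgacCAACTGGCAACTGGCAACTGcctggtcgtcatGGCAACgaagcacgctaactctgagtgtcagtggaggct
Cfap20 (chr8:95434870-95435119, minus strand): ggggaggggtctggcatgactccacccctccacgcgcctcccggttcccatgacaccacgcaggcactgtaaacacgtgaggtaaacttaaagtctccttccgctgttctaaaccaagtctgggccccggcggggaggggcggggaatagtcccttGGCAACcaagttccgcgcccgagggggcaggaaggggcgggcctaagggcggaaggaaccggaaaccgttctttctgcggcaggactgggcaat
Cfap47 (chrX:79517352-79517601, minus strand): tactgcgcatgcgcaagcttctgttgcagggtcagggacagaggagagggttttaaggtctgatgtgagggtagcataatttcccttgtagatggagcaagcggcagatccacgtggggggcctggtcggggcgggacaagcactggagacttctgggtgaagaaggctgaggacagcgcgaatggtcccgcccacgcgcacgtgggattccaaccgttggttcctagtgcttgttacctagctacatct

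RefSeq promoters were matched for 24 of the 31 genes. Over windows of 300 bases that run past the start, GTTGCC on either strand occurred in 9 of the 24 (37.5%), beside 14.1% of 27025 genes with a promoter. CAGTTG on either strand occurred in 4 of the 24 (16.7%), beside 15.4%. The genes with GTTGCC were Cfap20, Cfap44, Cfap46, Cfap58, Cfap74, Cfap100, Cfap161, Cfap298 and Cfap300, which include the lowest log2 change (Cfap58, -3.73) and Cfap20 and Cfap100 (-0.14 and -0.018). Both motifs overlap in Cfap161, where 3 copies of CAACTG and 2 of GGCAAC run into each other. Cfap74 and Cfap298, whose promoters are not shown, also held motif matches more than once. Their log2 changes were -1.04 for Cfap74 and -0.62 for Cfap298. Only these exact letters and their reverse complements were searched, so a promoter without a match may hold other forms of the sites. A match in these letters is a description of the window and not a bound site.

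Genes of the same family that the deposited table lists under older symbols were lower as well. Of 8 such genes, 8 had both Znhit1_KO libraries below both CTRL libraries (21.3% over all tested genes), the edgeR test called 0 at an adjusted p of 0.05 and 8 had an unadjusted p under 0.05, all lower. Their median log2 change was -1.68. Wdr66 (Cfap251), a partner of CFAP61 at the spoke base, stood at 2.60 and 3.10 CPM in Znhit1_KO and at 19.2 and 36.6 CPM in CTRL, a log2 change of -3.29 (SE 0.379). Maats1 (Cfap91), of the same complex, stood at 1.11 and 1.11 CPM in Znhit1_KO and at 3.46 and 6.64 CPM in CTRL, a log2 change of -2.18 (SE 0.413). Enkur (Cfap106), which encodes a microtubule inner protein, stood at 2.55 and 2.85 CPM in Znhit1_KO and at 10.9 and 20.7 CPM in CTRL. The log2 changes were -2.90 (SE 0.555) for Ccdc113 (Cfap263), -2.55 (SE 0.375) for Enkur and -1.17 (SE 0.342) for Ccdc173 (Cfap210). Efhb (-0.98, SE 0.35), Ccdc189 (-0.94, SE 0.26) and Ccdc96 (-0.69, SE 0.219) had smaller ones.

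Of 72 other axoneme genes (dynein arms, radial spokes, nexin link, central pair and tektins), 48 had both Znhit1_KO libraries below and 3 above both CTRL libraries, beside 21.3% and 21.8% of all tested genes. The edgeR test called 0 of them at an adjusted p of 0.05; at an unadjusted p under 0.05 there were 43 lower and 1 higher, beside 7.75% and 2.99% of all tested genes. The authors' deposited table marks 32 lower and 1 higher, beside 3.22% and 0.277% of its genes. Their median log2 change was -1.25, against -1.44 for the Cfap genes, and was -0.69 without CTRL replicate 2. The dynein heavy chain gene Dnah2 stood at 17.9 and 16.2 CPM in Znhit1_KO and at 58.8 and 78.3 CPM in CTRL. Hydin, a central pair protein, stood at 12.04 and 15.9 CPM in Znhit1_KO and at 50.4 and 86.2 CPM in CTRL. The log2 changes of the dynein heavy chain genes Dnah12 and Dnah1 were -2.65 (SE 0.296) and -2.35 (SE 0.331).

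Of 15 regulators of cilia and spermatocyte genes, 4 were below and 3 above in both Znhit1_KO libraries, which is near the 21.3% and 21.8% of all tested genes. Their median log2 change was -0.11, with 0 called by edgeR and 0 marked in the authors' deposited table. Rfx2, which drives cilia genes in spermatocytes and spermatids, stood at 75.2 and 95.6 CPM in Znhit1_KO and at 103.0 and 172.8 CPM in CTRL. Mybl1, the MYB factor of pachytene spermatocytes, stood at 94.1 and 99.9 CPM in Znhit1_KO and at 108.5 and 131.0 CPM in CTRL. Crem, an activator of spermatid genes, had a log2 change of -0.99 (SE 0.308), and Trp73 of -1.10 (SE 0.541). Foxj1, the master regulator of motile cilia in epithelia, stood at 5.98 and 4.12 CPM in Znhit1_KO and at 3.58 and 2.34 CPM in CTRL. Ccno and Myb were also above in both Znhit1_KO libraries, with log2 changes of 0.73 (SE 0.403) for Ccno and 1.39 (SE 0.642) for Myb. The groups overlapped for Rfx1, Rfx3, Rfx4, Rfx7, Sox30, Tcfl5, Mcidas and Gmnc.

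Summed levels of cell type markers also differed between the groups. All 9 markers of spermatocytes in meiotic prophase had negative log2 changes, 6 without overlap, beside 46.9% and 21.3% of all tested genes, and their median was -1.06. They summed to 1689 and 2573 CPM in Znhit1_KO and to 2704 and 4939 CPM in CTRL, with none at 0. The summed Cfap level was 26.8% and 23.2% of that spermatocyte sum in Znhit1_KO, against 31.6% and 29.3% in CTRL. Abundant genes weigh most in both sums. Cfap20, Cfap36, Cfap65 and Cfap97, the most abundant Cfap genes by group mean CPM, had log2 changes of -0.14 to -0.96. The median of all 31 Cfap genes was -1.44, so the ratio does not describe the typical member. Sycp3 (-0.23, SE 0.27) and Sycp1 (-0.46, SE 0.318), of the chromosome axis and synaptonemal complex, had smaller log2 changes than Ldhc (-1.88, SE 0.592) and Spata16 (-3.27, SE 0.707). The 7 spermatogonial markers summed to 843.2 and 807.6 CPM in Znhit1_KO and to 837.6 and 780.0 CPM in CTRL, with a median log2 change of 0.0096.

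The 12 Sertoli cell markers summed to 8714 and 7617 CPM in Znhit1_KO and to 6173 and 6568 CPM in CTRL, all with positive log2 changes and 11 without overlap, beside 21.8% of all tested genes above in both. The 6 Leydig cell markers summed to 231.3 and 242.0 CPM in Znhit1_KO and to 169.6 and 169.9 CPM in CTRL, the 6 macrophage markers to 54.3 and 75.9 CPM against 48.6 and 56.0 CPM, and the 4 myoid markers to 771.0 and 602.7 CPM against 689.4 and 718.3 CPM. Epithelium of the rete testis and efferent ducts, which holds motile ciliated cells, had 5 markers that summed to 11.99 and 6.51 CPM in Znhit1_KO and to 5.50 and 4.34 CPM in CTRL. All 5 had positive log2 changes, 3 without overlap (21.8% of all tested genes), and Ehf was at 0 in CTRL replicate 2. The part of these cell types in the Cfap values was not tested.

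**Figure D5:**
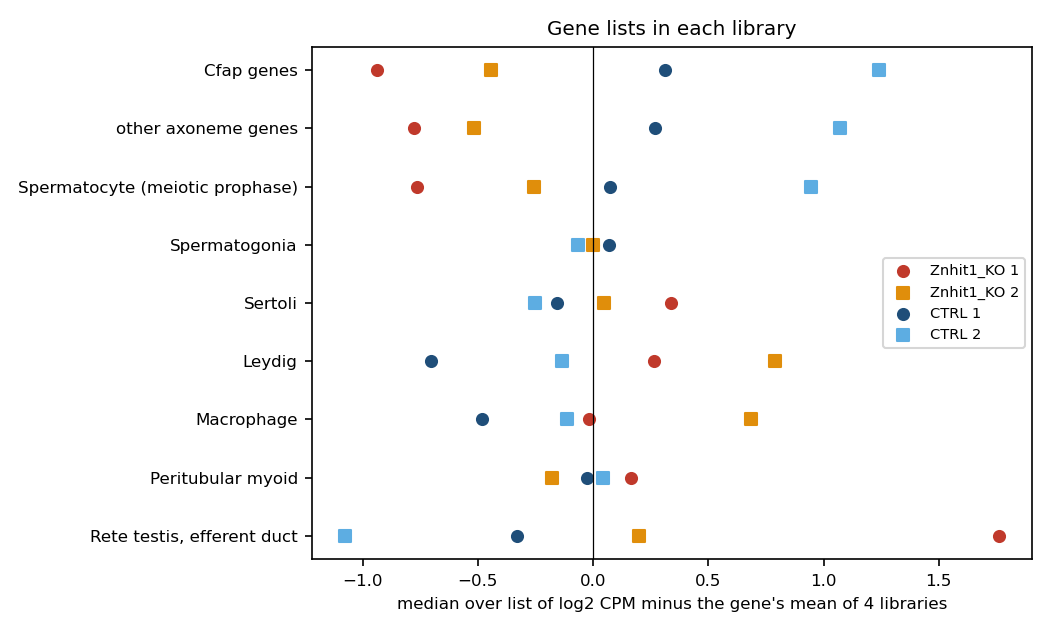
Median over each gene list of log2 CPM minus the gene's mean over the 4 libraries, 1 point per library, for the 31 Cfap genes, 72 other axoneme genes and markers of testis cell types. The Cfap, axoneme and spermatocyte lists share the order Znhit1_KO replicate 1, Znhit1_KO replicate 2, CTRL replicate 1, CTRL replicate 2 from low to high, and the spermatogonial points lie near 0.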

How the data were processed

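Cutadapt 2.5, HISAT2 2.2.1, StringTie 2.2.1, DESeq2 1.38.3 and the build mm10 are named in the submitters' processing notes, with no settings or gene annotation. The deposited gene table holds whole numbers. They were treated as estimated counts, since StringTie, which the authors ran per the submitters' processing notes, derives counts from coverage; precision from counting may be overstated. The authors' deposited comparison table gives TPM, a mean normalised signal, log2 changes with standard errors, a score (the change over its standard error) and p-values with adjusted p-values.

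The estimated counts, already whole, were tested with edgeR 4.0.16 (R 4.3.3): filterByExpr by group, TMM, quasi-likelihood F-test on genotype alone, Benjamini-Hochberg at 0.05 over 24116 genes. CPM used TMM factors, log2 CPM a prior count of 2, and each standard error is the log2 change over the root of F. The fit's common biological coefficient of variation stood at 0.349. Alternatives used limma 3.58.1 and DESeq2 1.42.0. The edgeR script was tested on simulated data. Positions came from GENCODE M21, where 29 of 31 identifiers matched with their version and 31 without it. Equal counts made up 3.00% of detected genes in the Znhit1_KO pair and 2.89% in the CTRL pair, so no library was taken as a duplicate. With 2 libraries a group, p-values reflect the spread between these libraries. The Cfap members, role groups and lists were chosen with earlier results of these data known. Every Cfap gene, gene under an older symbol and regulator could be named, and of the other axoneme genes the 4 with the lowest unadjusted p and a mean of at least 1 CPM. The 5 promoters, the neighbouring and overlapping genes and the spermatocyte markers named were chosen after values were seen.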

Additional observations from a re-analysis of the deposited data

How the results depend on the processing

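The Cfap median kept its sign under every alternative run. It ran from -1.86 to -0.99 with 1 library left out and from -1.76 to -1.40 under the other scalings. Each move was smaller than the spread between replicates (0.53), but that spread was taken from the same libraries. Leaving out 1 of 2 replicates could hardly move the median by more, so this comparison does not test its stability. The count of genes with both Znhit1_KO libraries below both CTRL libraries was 26 to 29 under the other scalings, an alternative added after the data were seen. With 1 library left out the order is easier to meet, so counts from those runs cannot test it and are not given. The median of all genes moved to -0.32 with Sertoli list scaling, where the Cfap median was -1.76. The counts of calls depended on the test: DESeq2 called 1041 genes and 20 Cfap genes. Leaving out 1 library gave 0 to 754 genes and 0 to 17 Cfap genes, with all such calls made without CTRL replicate 1. The axoneme median ran from -1.58 to -0.69 with 1 library left out. Its move from -1.25 to -0.69 without CTRL replicate 2 was larger than its spread between replicates (0.42). The sign turned for Cfap100 with the replicate block (0.037), with limma-voom (0.040), without Znhit1_KO replicate 2 (0.013) and without CTRL replicate 1 (0.48; -0.39 to 0.48 with 1 library left out), and for Cfap20 without Znhit1_KO replicate 1 (0.023) and without CTRL replicate 2 (0.10; -0.38 to 0.10). The cause was not tested.

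The replicate numbers are not said to pair the libraries. Over 24116 genes, the difference of replicate 1 from replicate 2 in Znhit1_KO correlated with that in CTRL at 0.42, a hint from the data and not the design. With the replicate number as a block, edgeR called 2737 genes and 25 Cfap genes, with a Cfap median of -1.41. Low counts limit Cfap58, Cfap73 and Cfap100.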
